A study of Mus musculus with 6 samples.

Results

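Many genes of the blood vessel lining are also active in LT-HSC, the long-term haematopoietic stem cells from which all blood lineages are renewed. Of these, 8 were followed here: Angpt1, Tek, Tie1, Robo4, Procr, Esam, Fgd5 and Ctnnal1. They were chosen as a named list, with earlier results of these data known. All 8 were found by gene symbol among the 17997 genes of the deposited expression table. All were among the 12657 genes with enough signal to test. RNA was measured in 6 libraries of LT-HSC sorted from the marrow of C57BL/6 mice aged 8 to 11 weeks, with 2 biological replicates per genotype and 3000 to 7000 sorted cells per RNA preparation. NPMc_Flt3ITD mice carried NPMc+, a nucleophosmin mutant that is held in the cytoplasm, together with Flt3-ITD, an internal tandem duplication in the receptor tyrosine kinase gene Flt3. Flt3ITD mice carried Flt3-ITD alone. Mx mice, labelled MxCRE, carried the interferon-inducible MxCre recombinase transgene and are the control named by the series design. The labels do not say whether the Flt3-ITD groups also carried MxCre or which surface markers defined the sort, and a group with NPMc+ alone was not analysed here.

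Angiopoietin-1, the product of Angpt1, is a secreted ligand that activates the receptor tyrosine kinase Tie2, encoded by Tek. Tie1 is the close relative of Tie2, binds no angiopoietin with high affinity by itself and modulates Tie2 signalling. In bone marrow this axis is best known for its link to stem cell quiescence and to attachment in the niche, and HSC are themselves a source of angiopoietin-1. Robo4 is a guidance-type receptor that stabilises vessels and takes part in HSC anchoring, Procr encodes the endothelial protein C receptor EPCR, and Esam encodes an adhesion molecule of endothelial tight junctions. Fgd5, an exchange factor for the small GTPase Cdc42, and Ctnnal1, which encodes alpha-catulin, a relative of alpha-catenin, are not surface proteins but are used as reporter genes that mark HSC in mice.

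The 4 receptor genes are shown with the DNA around their starts, as the receptors of the list. Each window holds 250 bases before the gene's start and 50 after it, from RefSeq on GRCm38.p6, with Tek at chr4:94739039-94739338 on the plus strand, Tie1 at chr4:118489800-118490099 on the minus strand, Procr at chr2:155750967-155751266 on the plus strand and Robo4 at chr9:37401722-37402021 on the plus strand. Capitals mark matches, on either strand, to the ETS letters CCGGAA or CAGGAA, the GATA letters AGATAA or TGATAA and the RUNX letters TGTGGT.
Tek: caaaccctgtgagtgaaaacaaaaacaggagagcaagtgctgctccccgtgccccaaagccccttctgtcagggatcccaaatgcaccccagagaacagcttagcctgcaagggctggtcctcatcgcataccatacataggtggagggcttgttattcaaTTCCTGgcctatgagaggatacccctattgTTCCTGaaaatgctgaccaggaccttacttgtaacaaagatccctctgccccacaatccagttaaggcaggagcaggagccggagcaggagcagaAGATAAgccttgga
Tie1: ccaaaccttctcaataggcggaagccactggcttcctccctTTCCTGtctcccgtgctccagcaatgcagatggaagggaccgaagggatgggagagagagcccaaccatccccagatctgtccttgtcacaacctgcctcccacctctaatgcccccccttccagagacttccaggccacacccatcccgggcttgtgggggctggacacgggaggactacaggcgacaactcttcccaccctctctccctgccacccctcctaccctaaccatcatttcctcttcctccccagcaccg
Procr: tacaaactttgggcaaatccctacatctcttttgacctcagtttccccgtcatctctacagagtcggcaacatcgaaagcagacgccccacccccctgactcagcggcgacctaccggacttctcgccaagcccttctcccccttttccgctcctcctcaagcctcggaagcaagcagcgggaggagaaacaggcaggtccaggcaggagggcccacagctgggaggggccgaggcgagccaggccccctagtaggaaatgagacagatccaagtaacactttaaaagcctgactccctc
Robo4: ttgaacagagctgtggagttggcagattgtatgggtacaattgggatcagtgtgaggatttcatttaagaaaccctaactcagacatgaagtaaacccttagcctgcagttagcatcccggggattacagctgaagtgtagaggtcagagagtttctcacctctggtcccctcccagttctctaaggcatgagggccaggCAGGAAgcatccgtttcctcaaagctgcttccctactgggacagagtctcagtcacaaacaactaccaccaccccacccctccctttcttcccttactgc

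Windows were found for 6 of the 8 genes: these 4, Fgd5 on chromosome 6 and Ctnnal1 on chromosome 4. CAGGAA was present in 3 of the 6, namely Tek, Tie1 and Robo4, in 30.6% of all 32817 promoter windows of the same length and in 27.1% of the 11989 windows of tested genes. The Tek window held it at 2 places, from base 162 and from base 192, the Tie1 window from base 42 and the Robo4 window from base 201. AGATAA was present in Tek alone of the 6, from base 287, in 11.2% of all windows and in 6.64% of those of tested genes. CCGGAA had no match in the 6 windows and was present in 14.9% of all windows and 26.8% of those of tested genes. TGATAA also had none and was present in 9.06% of all windows and 4.59% of those of tested genes. TGTGGT had none either and was present in 16.8% and 13.1%. The E-box letters CANNTG, not capitalised and overlapping none of the matches above, were present in 4 of the 6, in 72.3% of all windows and in 64.3% of those of tested genes. These are matches of letters in short windows, and no data on binding or chromatin were used.

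Expression values are normalised CPM as deposited, that is, reads of a gene scaled to the size of its library. Between 15618802 and 37038893 reads per library were recovered from the table, and 1 read was worth 0.0289 to 0.0657 CPM. Fold changes are differences of log2(CPM + 1), which understate the change of low genes, and a gene passed at a limma p under 0.05 after Benjamini-Hochberg adjustment over all 12657 genes. The libraries carry marks of sex that differ between and within genotypes. Xist, the female-specific transcript, was at 259 and 625 CPM in NPMc_Flt3ITD, 37.2 and 547 CPM in Flt3ITD, against 1007 and 1038 CPM in Mx. Ddx3y, a Y-linked transcript, was at 61.1 and 46.9 CPM in NPMc_Flt3ITD, 63.6 and 32.8 CPM in Flt3ITD, against 20.4 and 24.8 CPM in Mx. Every library thus held RNA from males, and the mix of sexes differed between the groups and between the Flt3ITD replicates. In bulk RNA, fewer cells that express a gene and less RNA per cell cannot be told apart.

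The sum of the 8 genes was lower in both mutant groups than in Mx. It was 817 and 670 CPM in NPMc_Flt3ITD, 464 and 527 CPM in Flt3ITD, against 1149 and 1041 CPM in Mx, with no overlap between groups. Angpt1 makes up most of this sum, so the genes are described below by themselves.

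**Figure D1:**
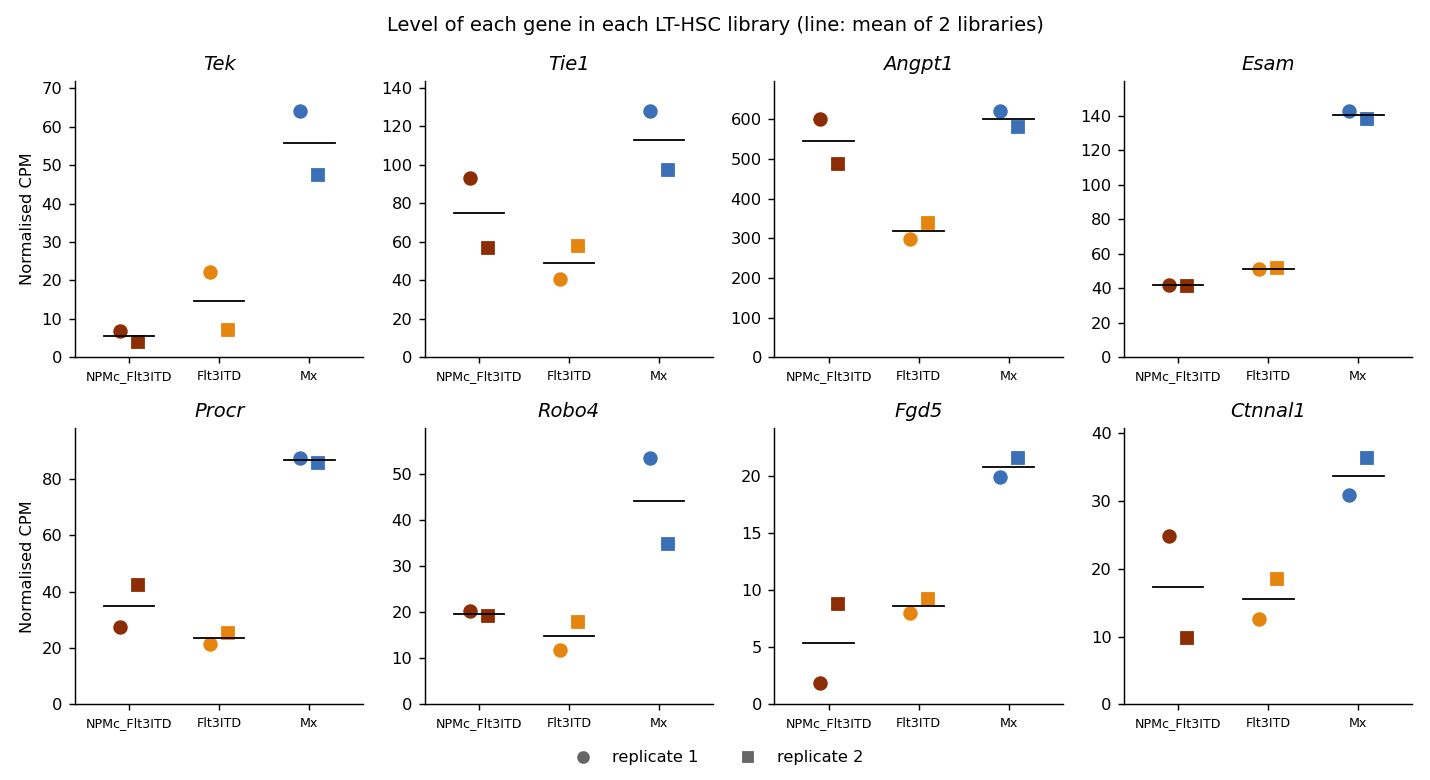
Normalised CPM of the 8 genes in each library, with a panel per gene and an axis from 0 that differs between panels. Points are libraries (marker shape gives the replicate) and the short lines are group means of 2 libraries. The NPMc_Flt3ITD and Flt3ITD points lie under both Mx points for every gene except Angpt1, where NPMc_Flt3ITD replicate 1, at 601 CPM, lies between the Mx libraries.

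Angpt1, the ligand on chromosome 15, was the most abundant of the 8, and the only one whose NPMc_Flt3ITD libraries overlapped those of Mx. It was at 601 and 488 CPM in NPMc_Flt3ITD, 297 and 340 CPM in Flt3ITD, against 622 and 579 CPM in Mx. The Flt3ITD libraries were below all others, and NPMc_Flt3ITD replicate 1 lay between the Mx libraries. In Flt3ITD against Mx, Angpt1 fell by 0.92 on the log2 scale (SE 0.18, limma adjusted p = 0.0355), and the estimate in NPMc_Flt3ITD was -0.15 (95% interval -0.57 to 0.27, adjusted p = 0.832). Angpt1 shares 737 of its 5205 exon bases with the antisense gene Gm17473 in the GENCODE annotation. Gm17473 was not among the deposited genes. Without a stated strand setting, reads of this pair within the shared bases cannot be told apart.

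Tek, encoding the angiopoietin receptor Tie2, fell in NPMc_Flt3ITD against Mx. It was at 6.96 and 4.04 CPM in NPMc_Flt3ITD, 22.2 and 7.22 CPM in Flt3ITD, against 64.2 and 47.5 CPM in Mx. The groups did not overlap, and the lower Flt3ITD library lay just above the higher NPMc_Flt3ITD library. These levels rest on 186 and 140 reads in NPMc_Flt3ITD, 338 and 228 reads in Flt3ITD, against 1711 and 1009 reads in Mx. The NPMc_Flt3ITD mean of 5.50 ± 2.06 CPM (SD, n = 2) was 9.85% of the Mx mean of 55.8 ± 11.7 CPM, and the Flt3ITD mean of 14.7 ± 10.6 CPM was 26.3% of it. In NPMc_Flt3ITD against Mx, Tek fell by 3.15 on the log2 scale (SE 0.48, limma adjusted p = 0.0207). In Flt3ITD against Mx the estimate was -2.03 (SE 0.48, adjusted p = 0.0523). It rested on single libraries, at -1.28 without Flt3ITD replicate 2 and -2.77 without Flt3ITD replicate 1.

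Tie1, the relative that modulates Tie2, was below Mx in every mutant library and passed in neither comparison with Mx. It was at 93.2 and 56.7 CPM in NPMc_Flt3ITD, 40.5 and 57.9 CPM in Flt3ITD, against 128 and 97.2 CPM in Mx. Both mutant groups lay under Mx, while their own ranges overlapped. The estimates against Mx were -0.61 in NPMc_Flt3ITD (SE 0.28, limma adjusted p = 0.436) and -1.19 in Flt3ITD (SE 0.28, adjusted p = 0.0513).

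Ratios between Angpt1, Tek and Tie1 within a library do not depend on how that library was scaled. Tek was 0.0747 and 0.0713 times Tie1 in NPMc_Flt3ITD, 0.548 and 0.125 times in Flt3ITD, against 0.500 and 0.489 times in Mx. Both NPMc_Flt3ITD libraries were below all others, and the Flt3ITD libraries stood apart, replicate 1 slightly above Mx and replicate 2 far under it. Angpt1 was 86.3 and 120.6 times Tek in NPMc_Flt3ITD, 13.4 and 47.0 times in Flt3ITD, against 9.69 and 12.2 times in Mx. Here the groups did not overlap and NPMc_Flt3ITD was the highest. Angpt1 was 6.45 and 8.60 times Tie1 in NPMc_Flt3ITD, 7.33 and 5.87 times in Flt3ITD, against 4.85 and 5.96 times in Mx, a range within which Flt3ITD overlapped both other groups. An exact permutation test of 2 libraries against 2 cannot give a two-sided p under 0.333, so these ratios are descriptions.

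**Figure D2:**
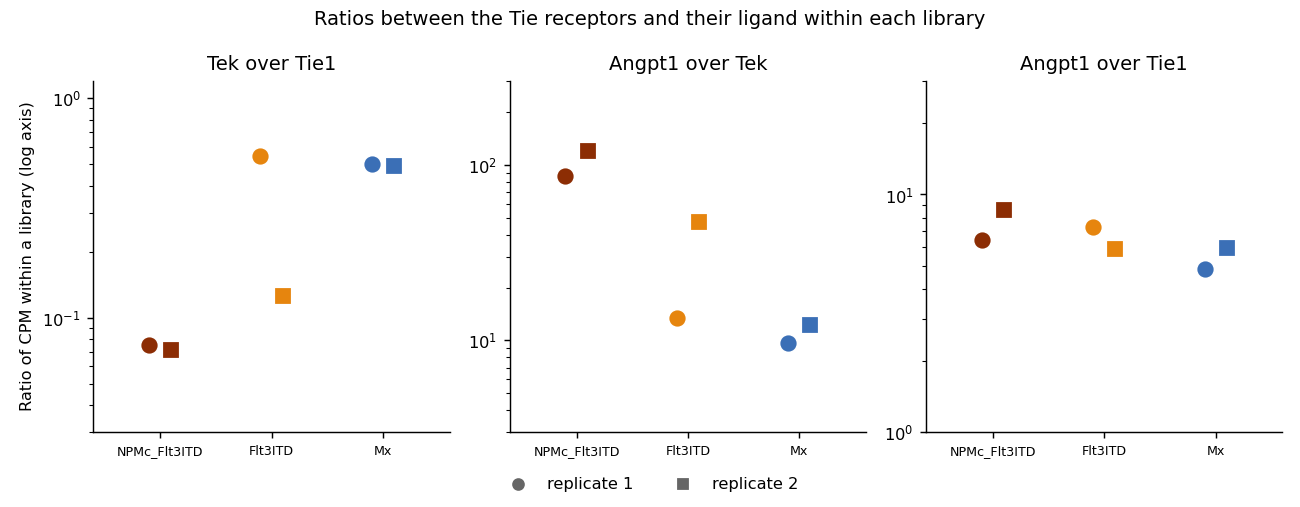
Ratios of normalised CPM between the genes within each library, 1 point per library. Tek over Tie1 is under 0.08 in both NPMc_Flt3ITD libraries, and Angpt1 over Tek is highest there, at 86.3 and 120.6.

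Robo4, the vessel-stabilising receptor on chromosome 9, was at 20.2 and 19.2 CPM in NPMc_Flt3ITD, 11.8 and 17.8 CPM in Flt3ITD, against 53.5 and 34.8 CPM in Mx. All mutant libraries were under both Mx libraries, and Flt3ITD was the lowest group. In Flt3ITD against Mx, Robo4 fell by 1.51 on the log2 scale (SE 0.30, limma adjusted p = 0.0350). In NPMc_Flt3ITD against Mx the estimate was -1.09 (SE 0.30, adjusted p = 0.156).

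Procr, which encodes the protein C receptor used to purify stem cells, was lower in both mutant genotypes. It was at 27.4 and 42.5 CPM in NPMc_Flt3ITD, 21.5 and 25.4 CPM in Flt3ITD, against 87.6 and 85.8 CPM in Mx. The Mx libraries were nearly equal, and no mutant library reached the level of either. Procr fell by 1.32 on the log2 scale in NPMc_Flt3ITD against Mx (SE 0.25, limma adjusted p = 0.0459) and by 1.85 in Flt3ITD against Mx (SE 0.25, adjusted p = 0.0110). EPCR protein was not measured, and the labels do not say whether it was a sort marker.

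Esam, the junctional adhesion molecule, had the closest replicates of the 8 in both mutant groups, and in Mx those of Procr were closer. It was at 42.0 and 41.2 CPM in NPMc_Flt3ITD, 51.0 and 51.7 CPM in Flt3ITD, against 143 and 138 CPM in Mx. The groups did not overlap, and within each group the higher library was at most 1.03 times the lower. Esam fell by 1.73 on the log2 scale in NPMc_Flt3ITD against Mx (SE 0.17, limma adjusted p = 0.00326), to 29.6% of the Mx mean. It fell by 1.43 in Flt3ITD against Mx (SE 0.17, adjusted p = 0.00773), to 36.6% of the Mx mean.

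Fgd5 and Ctnnal1, the intracellular reporter genes, were below Mx in every mutant library and varied most between the NPMc_Flt3ITD replicates. Fgd5 was at 1.91 and 8.78 CPM in NPMc_Flt3ITD, 8.01 and 9.19 CPM in Flt3ITD, against 19.9 and 21.6 CPM in Mx. Ctnnal1 was at 24.8 and 9.88 CPM in NPMc_Flt3ITD, 12.5 and 18.5 CPM in Flt3ITD, against 30.9 and 36.4 CPM in Mx. The NPMc_Flt3ITD replicates stood 4.60-fold apart for Fgd5 and 2.51-fold apart for Ctnnal1, and in opposite directions. For Fgd5 the estimates were -2.03 in NPMc_Flt3ITD (SE 0.52, limma adjusted p = 0.129) and -1.18 in Flt3ITD (SE 0.52, adjusted p = 0.213), both against Mx. For Ctnnal1 they were -1.04 in NPMc_Flt3ITD (SE 0.41, adjusted p = 0.330) and -1.09 in Flt3ITD (SE 0.41, adjusted p = 0.154), both against Mx.

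**Figure D3:**
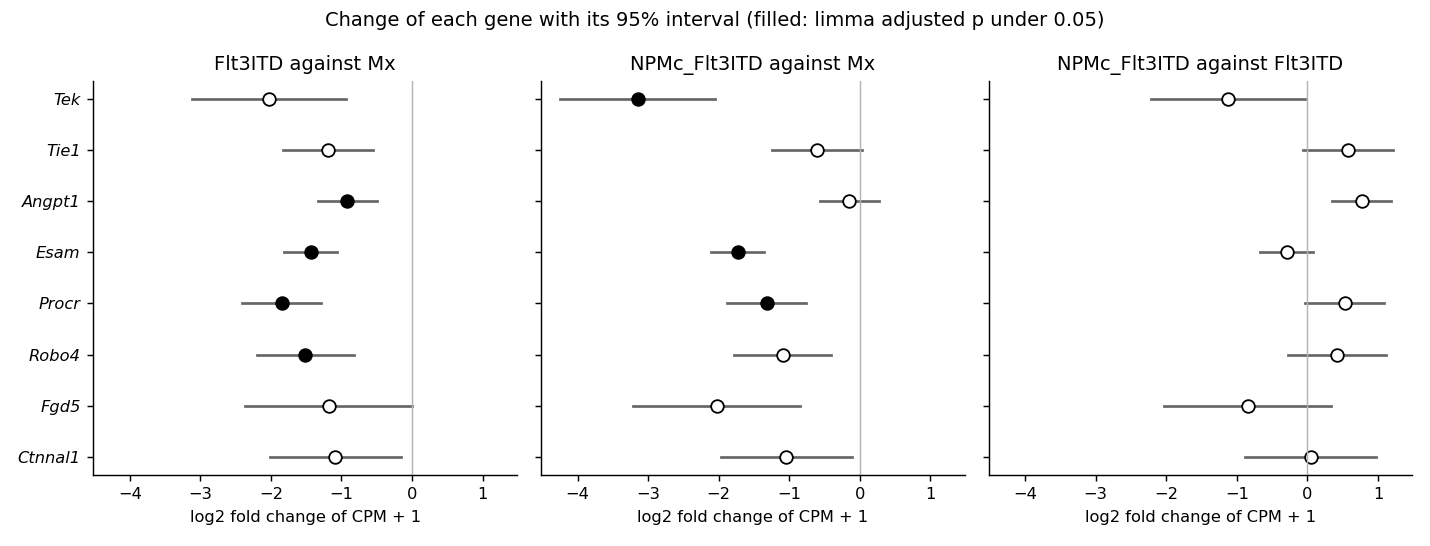
Estimated log2 fold change of CPM + 1 with its 95% interval for each of the 8 genes in the 3 comparisons, from the limma fit of all 6 libraries. Filled points passed an adjusted p of 0.05. All estimates against Mx are below 0, from -0.15 for Angpt1 to -3.15 for Tek, both in NPMc_Flt3ITD, and no point of NPMc_Flt3ITD against Flt3ITD is filled.

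Counted over the list, 4 of the 8 genes passed as lower in Flt3ITD against Mx (Esam, Procr, Robo4 and Angpt1) and 0 as higher, where 2.43% of all tested genes passed as lower, 2.12% as higher and 4.55% in either direction. All 8 had both Flt3ITD libraries under both Mx libraries, as did 27.3% of all tested genes, and 26.6% had them above. On the recovered reads edgeR called 3 of the 8 as lower (1.29% of all tested genes) and DESeq2 6 (5.82%). The median log2 fold change was -1.31 over the 8 genes and 0.01 over all tested genes. The count of 4 rests on particular libraries: it was 0 without Mx replicate 1, without Mx replicate 2 or without Flt3ITD replicate 1, 3 without Flt3ITD replicate 2, and 2 without either NPMc_Flt3ITD replicate. Over all tested genes 576 passed with the 6 libraries, and 0 to 316 with a library left out.

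In NPMc_Flt3ITD against Mx, 3 of the 8 passed as lower (Esam, Tek and Procr) and 0 as higher, where 0.656% of all tested genes passed as lower, 0.514% as higher and 1.17% in either direction. The libraries did not overlap for 7 of the 8, all lower, as for 22.1% of all tested genes, while 20.4% were higher without overlap, and Angpt1 was the exception. On the recovered reads edgeR called 2 of the 8 as lower (0.427% of all tested genes) and DESeq2 5 (2.61%). The median log2 fold change was -1.21 over the 8 genes and 0.01 over all tested genes. With a library left out the count was 1 without either Mx replicate or either NPMc_Flt3ITD replicate, where Esam alone passed, and 2 without either Flt3ITD replicate, where the call on Procr was lost. Over all tested genes 148 passed with the 6 libraries, and 20 to 169 with a library left out. Both comparisons use the same Mx libraries, so their values are set side by side and not counted as separate evidence. The list was chosen with earlier results of these data known, so its counts beside the shares of all genes are descriptions.

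**Figure D4:**
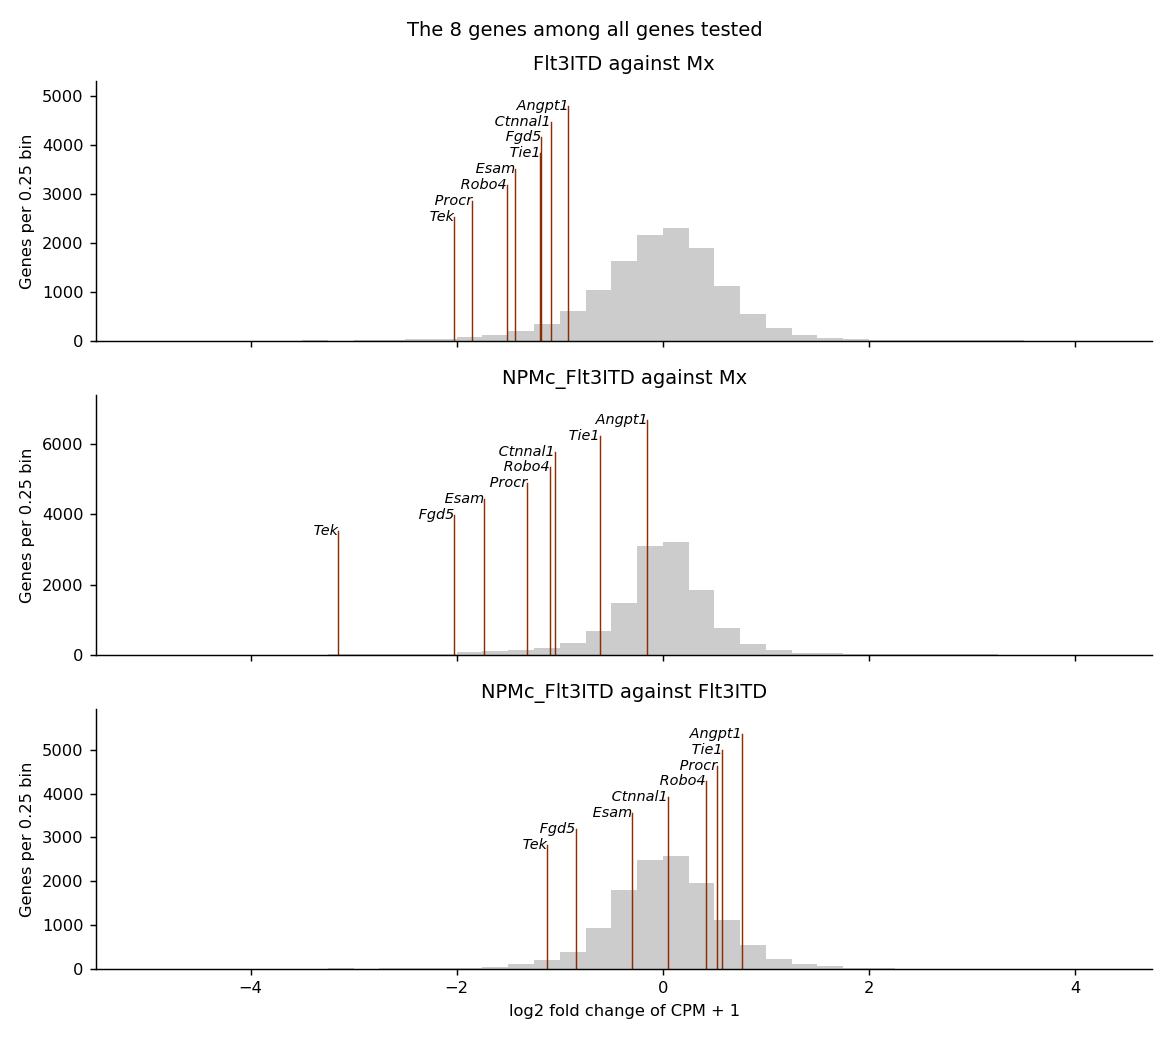
Distribution of log2 fold changes of CPM + 1 over the 12657 tested genes (grey bars, genes per bin of 0.25) in the 3 comparisons, with vertical lines at the 8 genes. The lines stand in the lower tail against Mx, apart from Angpt1 at -0.15 in NPMc_Flt3ITD, and on both sides of 0 in NPMc_Flt3ITD against Flt3ITD.

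Set directly against each other, the mutant genotypes gave estimates that pointed both ways, and the limma fit with group as its only term passed no gene of the list. Of the 8, 0 passed in NPMc_Flt3ITD against Flt3ITD, where 1.18% of all tested genes passed (0.277% as higher and 0.901% as lower). At an unadjusted p under 0.05 there were 2 of the 8 and 2384 of all tested genes, edgeR on the recovered reads called 0 of the 8 (0.727% of all tested genes), and DESeq2 called 1, Angpt1 (8.04% in either direction). Angpt1 was higher by an estimate of 0.77 (95% interval 0.35 to 1.19, limma adjusted p = 0.0804). Tek was lower by an estimate of -1.12 (95% interval -2.22 to -0.03, adjusted p = 0.255). The size of the Tek estimate rested on single libraries, at -0.38 without Flt3ITD replicate 1 and -1.87 without Flt3ITD replicate 2. The ligand and its receptor were thus estimated in opposite directions between the mutant genotypes.

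The other genes of the list gave smaller or wider estimates in this comparison. Procr was at 0.53 (95% interval -0.03 to 1.09, limma adjusted p = 0.293) and Robo4 at 0.42 (-0.27 to 1.11, adjusted p = 0.505), with all NPMc_Flt3ITD libraries above those of Flt3ITD for both genes. Esam was at -0.30 (-0.67 to 0.08, adjusted p = 0.384), with both NPMc_Flt3ITD libraries below Flt3ITD. Tie1 at 0.58 (-0.06 to 1.22, adjusted p = 0.315), Fgd5 at -0.85 (-2.03 to 0.34, adjusted p = 0.428) and Ctnnal1 at 0.05 (-0.88 to 0.97, adjusted p = 0.966) had overlapping libraries. In all, 3 genes had non-overlapping libraries as higher and 2 as lower, where 24.4% and 23.8% of all tested genes did. The median over the 8 was 0.23, against 0.03 over all tested genes. These intervals leave room for differences of more than 2-fold in 6 of the 8 genes.

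Levels of different genes were compared per kilobase of exon, with exon lengths from GENCODE. In NPMc_Flt3ITD the order was Angpt1 (104.5 CPM per kb), Procr (17.2), Tie1 (15.2), Esam (14.5), Robo4 (3.72), Ctnnal1 (2.26), Tek (1.17) and Fgd5 (0.850). Procr, Tie1 and Esam were not separated beyond the spread of their libraries there, nor were Ctnnal1, Tek and Fgd5. In Flt3ITD the order was Angpt1 (61.2 CPM per kb), Esam (17.9), Procr (11.5), Tie1 (10.002), Tek (3.12), Robo4 (2.78), Ctnnal1 (2.02) and Fgd5 (1.37). Procr overlapped Tie1, and Tek, Robo4 and Ctnnal1 formed an overlapping run. In Mx the order was Angpt1 (115 CPM per kb), Esam (49.0), Procr (42.7), Tie1 (22.9), Tek (11.9), Robo4 (8.32), Ctnnal1 (4.39) and Fgd5 (3.29), with no overlap between neighbours. Tek thus stood above Robo4 and Ctnnal1 in Mx and below Robo4 in NPMc_Flt3ITD.

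Over the 6 libraries correlations among the 8 genes spanned a wide range. Pearson correlations of log2(CPM + 1) were highest for Robo4 with Procr, at 0.926, Tek with Esam, at 0.919, and Tie1 with Robo4, at 0.917. They were lowest for Angpt1 with Fgd5, at 0.0982, Tie1 with Fgd5, at 0.257, and Angpt1 with Tek, at 0.274. The 6 points fall into 3 genotypes, so the points are not independent and no p is given. Among 10183 genes averaging at least 5 CPM, the 10 most alike to the mean profile of the 8 genes were Gcnt2, Gas6, Col4a3bp, Gnl3l, Eif4a2, Nwd1, Dusp4, Scamp1, Maged2 and Nceh1, with correlations between 0.988 and 0.997. In all, 103 genes correlated above 0.95 with it. Most alike to single genes were Map2k6 for Tek (0.997), Nrip1 for Tie1 (0.995), Zfp287 for Angpt1 (0.996), Ppp1r9a for Esam (0.9997), Erc1 for Procr (0.995), Hnmt for Robo4 (0.998), 1700040L02Rik for Fgd5 (0.997) and Mllt4 for Ctnnal1 (0.992).

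Like most tested genes, most other genes of the same pathways did not pass, although most list medians against Mx were below 0. Beside the list counts below, 2.43% of all tested genes passed as lower and 2.12% as higher in Flt3ITD against Mx. In NPMc_Flt3ITD the shares lower and higher were 0.656% and 0.514% against Mx, and 0.901% and 0.277% against Flt3ITD. Whether a list exceeded these shares was not tested. In the angiopoietin and Tie pathway, 0 of 19 tested genes passed in any of the 3 comparisons, with medians of -0.18 in Flt3ITD against Mx, -0.11 in NPMc_Flt3ITD against Mx and 0.15 in NPMc_Flt3ITD against Flt3ITD. Angpt2, the antagonist ligand, was at 1.27 and 1.85 CPM in NPMc_Flt3ITD, 1.44 and 2.50 CPM in Flt3ITD, against 2.44 and 3.63 CPM in Mx. Angpt4 and Ptprb, a phosphatase that acts on Tie2, were too low to test.

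In the list of protein C pathway genes, median log2 fold changes were -0.86 in Flt3ITD and -0.32 in NPMc_Flt3ITD, both against Mx. Of 8 tested genes, 1 passed, as lower, in each mutant genotype against Mx. This was Tfpi, which encodes the inhibitor of the tissue factor pathway and not a part of the protein C pathway itself. Tfpi was at 11.7 ± 0.458 CPM in NPMc_Flt3ITD, 16.8 ± 2.98 CPM in Flt3ITD and 46.6 ± 3.38 CPM in Mx (SD, n = 2 each). It fell by 1.90 on the log2 scale in NPMc_Flt3ITD (limma adjusted p = 0.0119) and by 1.43 in Flt3ITD (adjusted p = 0.0255), both against Mx. Thbd, encoding thrombomodulin, was at 3.78 and 5.37 CPM in NPMc_Flt3ITD, 1.71 and 2.41 CPM in Flt3ITD, against 10.1 and 6.22 CPM in Mx. In Flt3ITD against Mx its limma adjusted p was 0.0610. F2r, the thrombin receptor through which EPCR-bound protein C signals, was at 716 and 399 CPM in NPMc_Flt3ITD, 398 and 200.5 CPM in Flt3ITD, against 305 and 222 CPM in Mx. In NPMc_Flt3ITD its limma adjusted p was 0.272 against Mx and 0.222 against Flt3ITD.

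Among Slit and Robo pathway genes, median log2 fold changes were -0.28 in Flt3ITD and 0.24 in NPMc_Flt3ITD, both against Mx. Of 11 tested, 1 passed, in NPMc_Flt3ITD against Mx. Enah, an actin regulator, was higher there, at 7.50 ± 2.46 CPM against 0.437 ± 0.248 CPM in Mx (SD, n = 2 each, limma adjusted p = 0.0306). Robo1 was at 0 and 0.0578 CPM in NPMc_Flt3ITD, 0.460 and 1.17 CPM in Flt3ITD, against 1.65 and 1.37 CPM in Mx, and Slit2 was too low to test. The 14 Fgd and Cdc42 genes had medians of -0.19 in Flt3ITD and -0.14 in NPMc_Flt3ITD, both against Mx. Of them, Fgd4 alone passed, as lower in Flt3ITD against Mx, at 4.65 ± 3.05 CPM against 22.7 ± 2.70 CPM (adjusted p = 0.0312). Cdc42 was at 567 ± 18.4 CPM in NPMc_Flt3ITD, 587 ± 8.18 CPM in Flt3ITD and 619 ± 6.21 CPM in Mx.

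Among 13 tested junction and catenin genes, median log2 fold changes were -0.60 in Flt3ITD and -0.55 in NPMc_Flt3ITD, both against Mx. Of the 13, 2 passed in each mutant genotype against Mx, all lower. Jam3, a junctional adhesion molecule of the same superfamily as Esam, passed in both, at 3.82 ± 0.690 CPM in NPMc_Flt3ITD (limma adjusted p = 0.0337), 4.28 ± 0.632 CPM in Flt3ITD (adjusted p = 0.0293) and 18.3 ± 4.04 CPM in Mx. Ctnna1, the alpha-catenin gene to which Ctnnal1 is related, fell in NPMc_Flt3ITD to 39.0 ± 8.61 CPM, against 96.2 ± 3.58 CPM in Mx (adjusted p = 0.0221). F11r, which encodes JAM-A, fell in Flt3ITD to 32.3 ± 3.80 CPM, against 95.7 ± 8.16 CPM in Mx (adjusted p = 0.0122). In NPMc_Flt3ITD against Mx its adjusted p was 0.0900.

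The 14 transcription factors shared by blood and endothelium had medians of -0.61 in Flt3ITD and -0.19 in NPMc_Flt3ITD, both against Mx. Of the 14, 2 passed, both lower in Flt3ITD against Mx. Ets1 was at 8.63 ± 0.878 CPM in Flt3ITD against 33.4 ± 7.21 CPM in Mx (limma adjusted p = 0.0186), and Elk3, another ETS factor, was at 47.4 ± 5.22 CPM against 82.3 ± 3.03 CPM (adjusted p = 0.0478). In NPMc_Flt3ITD against Mx, 0 of the 14 passed, with Ets1 at 17.1 ± 2.57 CPM in NPMc_Flt3ITD. Ets1 in NPMc_Flt3ITD against Flt3ITD had an estimate of 0.90 (adjusted p = 0.144).

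The label of the genes as endothelial-type was set against markers of endothelial and stem cells. The endothelial genes also known in HSC were 10 in all. They summed to 491 to 540 CPM in NPMc_Flt3ITD, 447 to 527 CPM in Flt3ITD and 620 to 720 CPM in Mx. Their median log2 fold change was -1.02 in Flt3ITD and -0.56 in NPMc_Flt3ITD, both against Mx. Of the 10, 1 passed as lower in Flt3ITD against Mx and as higher in NPMc_Flt3ITD against Flt3ITD. This was Cd93, at 123 ± 2.32 CPM in NPMc_Flt3ITD, 58.3 ± 15.6 CPM in Flt3ITD and 115 ± 6.02 CPM in Mx (SD, n = 2 each). Vwf, Emcn, Eng, Clec14a and Ramp2 had all mutant libraries under both Mx libraries, as did all of the 8 except Angpt1. Pecam1, Cd93 and Mcam did so in Flt3ITD alone, Icam2 in NPMc_Flt3ITD alone and Egfl7 in neither. Pecam1 and Cd93 lay above Mx in NPMc_Flt3ITD. Clec14a, Mcam and Ramp2 were low, at 4.52 CPM or less. Of all tested genes, 27.3% lay under Mx without overlap in Flt3ITD and 22.1% in NPMc_Flt3ITD. Of 15 defining endothelial markers 11 were in the table and 5 could be tested, with 0 passing in any comparison. Their summed level was 4.74 to 5.39 CPM in NPMc_Flt3ITD, 7.70 to 13.2 CPM in Flt3ITD and 10.1 to 17.3 CPM in Mx. Cdh5, encoding VE-cadherin, was at 0 in 4 libraries, both of Mx among them, and at no more than 0.0634 CPM elsewhere. Some other defining markers were highest in Mx, and others were not. Kdr, a VEGF receptor gene, was at 0.748 and 0.751 CPM in NPMc_Flt3ITD, 0.131 and 0.887 CPM in Flt3ITD, against 1.87 and 6.22 CPM in Mx. Sox18, an endothelial transcription factor gene, was at 0.224 and 0 CPM in NPMc_Flt3ITD, 1.71 and 1.24 CPM in Flt3ITD, against 2.36 and 5.84 CPM in Mx. Cldn5 and Flt4 also had both Mx libraries above all mutant libraries. Plvap and Nos3 did not. Plvap was at 2.92 and 0.376 CPM in NPMc_Flt3ITD, 6.50 and 4.18 CPM in Flt3ITD, against 1.99 and 1.41 CPM in Mx. Nos3 was at 1.05 and 1.73 CPM in NPMc_Flt3ITD, 2.63 and 0.539 CPM in Flt3ITD, against 0.525 and 0.0471 CPM in Mx. The 12 LT-HSC markers were all above 0 in every library and summed to 1663 to 2346 CPM in NPMc_Flt3ITD, 1521 to 1633 CPM in Flt3ITD and 2625 to 2717 CPM in Mx. Of them 1 passed as lower in NPMc_Flt3ITD and 5 in Flt3ITD, both against Mx.

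Some marker lists of other marrow cells moved with genotype as well, while others, such as neutrophil markers, varied widely between replicates. Multipotent progenitor markers (8 genes) summed to 2587 to 2913 CPM in NPMc_Flt3ITD, 1921 to 2580 CPM in Flt3ITD and 938 to 1159 CPM in Mx, and 3 of the 8 passed as higher in each mutant genotype against Mx. Erythroid markers (9 genes) summed to 63.6 to 241 CPM in NPMc_Flt3ITD, 1976 to 2085 CPM in Flt3ITD and 208 to 278 CPM in Mx. Of 8 tested, 2 passed as lower in NPMc_Flt3ITD against Mx, 4 as higher in Flt3ITD against Mx and 4 as lower in NPMc_Flt3ITD against Flt3ITD. Stromal markers, 10 of 12 in the table, summed to 80.0 to 81.5 CPM in NPMc_Flt3ITD, 17.6 to 43.0 CPM in Flt3ITD and 22.2 to 27.1 CPM in Mx. Pdgfrb gave most of the stromal sum in NPMc_Flt3ITD, at 65.7 and 59.3 CPM. B and plasma cell markers summed to 48.2 to 303 CPM in NPMc_Flt3ITD, 47.3 to 265 CPM in Flt3ITD and 79.9 to 389 CPM in Mx, with 2 of 7 tested lower in NPMc_Flt3ITD and 4 of 7 lower in Flt3ITD, both against Mx. Without Igj, the most abundant of them, the sums were 39.9 and 61.5 CPM in NPMc_Flt3ITD, 19.2 and 29.8 CPM in Flt3ITD, against 73.6 and 306 CPM in Mx. T and NK cell markers summed to 292 to 298 CPM in NPMc_Flt3ITD, 186 to 252 CPM in Flt3ITD and 85.4 to 117 CPM in Mx, with 1 of 6 tested, Nkg7, higher in each mutant genotype against Mx. Nkg7, a gene of cytotoxic granules, gave most of this sum, and without it the sums were 6.55 and 11.8 CPM in NPMc_Flt3ITD, 2.69 and 6.65 CPM in Flt3ITD, against 9.11 and 27.0 CPM in Mx. Neutrophil markers summed to 268 to 633 CPM in NPMc_Flt3ITD, 20.9 to 819 CPM in Flt3ITD and 90.5 to 214 CPM in Mx, and limma passed 0 of 9 in any comparison. Megakaryocyte markers summed to 241 to 613 CPM in NPMc_Flt3ITD, 225 to 322 CPM in Flt3ITD and 240 to 351 CPM in Mx, and limma passed 0 of 8. The part of cell composition, and of the mix of sexes, in the differences of the 8 genes was not tested.

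**Figure D5:**
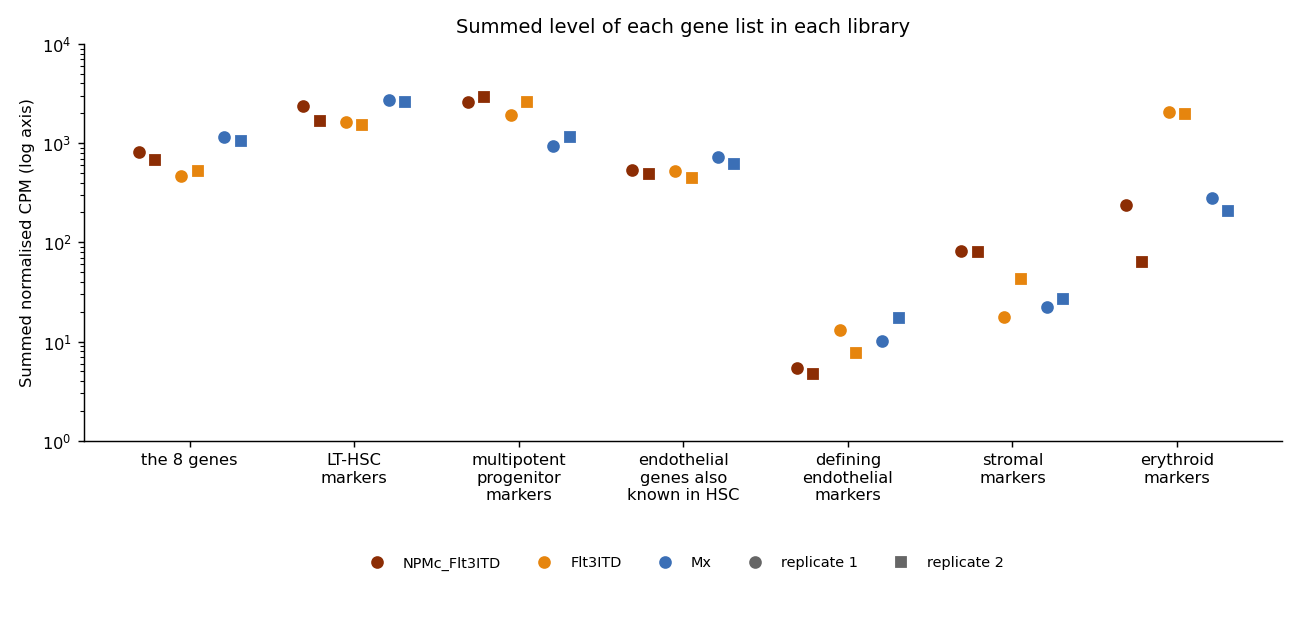
Summed normalised CPM of the 8 genes and of 6 marker lists in each library, on a log axis. The sum of the 8 genes and the LT-HSC marker sum are highest in Mx, the progenitor sum is lowest in Mx, and the defining endothelial markers sum to under 18 CPM in every library.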

How the data were processed

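LT-HSC RNA from 6 samples was read by SMART-seq after selection of polyadenylated RNA, per the labels' protocols. For each gene and library the authors deposited a signal value, the normalised CPM of edgeR per the file headers, and kept the genes above 0 in any sample. The submitters' processing notes name the build mm9 and, with no order or role, edgeR 3.20.7, HTSeq 0.6.1p1, SAMtools 0.1.18, Bowtie2 2.2.4, TopHat2 2.1.0 and CASAVA 1.8. Neither the annotation nor the strand setting is given in the sources used here, nor the treatment of reads matching at several places. Of 107982 values, 100% were whole multiples of 1 read within 0.01 reads, so whole reads were recovered. Amplified reads without molecular identifiers are not independent molecules, so read numbers speak of counting error only.

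A gene was tested if 2 or more libraries reached 1 CPM. limma 3.58.1 with an intensity trend (R 4.3.3) was fitted to log2(CPM + 1) of all 6 libraries with group as the only term, leaving 3 residual degrees of freedom (8.67 after moderation), and p-values were adjusted by Benjamini-Hochberg with a threshold of 0.05. As alternatives, edgeR 4.0.16 and DESeq2 1.42.0 were run on the recovered reads. edgeR called 301 genes in Flt3ITD against Mx, 104 in NPMc_Flt3ITD against Mx and 92 between the mutant groups. Other settings tried were the pseudocount, the filter, scaling to library totals, no trend, the replicate block and leaving out each library.

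The 8 genes, pathway lists and markers were chosen with earlier results of these data known. Named genes were the 8, up to 4 passing genes of each pathway list per comparison, fixed ligands, receptors and partners, and the 10 genes most alike to the mean profile with the closest for each gene. Cd93 and the other endothelial genes also known in HSC were named after their values were seen. So were Cdh5, Kdr, Sox18, Cldn5, Flt4, Plvap, Nos3, Pdgfrb, Igj, Nkg7 and Ddx3y. Coordinates, sequences and exon lengths come from GRCm38 tables (RefSeq and GENCODE M21) and were not joined to mm9 coordinates.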

Additional observations from a re-analysis of the deposited data

How the results depend on the processing

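In Flt3ITD against Mx, 4 genes of the list were lower. The count was 0 with no filter on low values, 2 with no intensity trend, 3 with edgeR or only the 4 libraries compared, 0 to 3 with a library left out, and 6, with Tek and Tie1 added, with a pseudocount of 4, a filter at 5 CPM, scaling to library totals, DESeq2 or the replicate block. Over all genes 576 passed, against 0 with no filter, 301 with edgeR, 1489 with DESeq2, 190 with no trend, 2341 with the replicate block, 337 with only the 4 libraries compared and 0 to 316 with a library left out. In NPMc_Flt3ITD against Mx, 3 were lower. The count was 1 with no filter, 1 with no trend, 2 with a pseudocount of 0.25, edgeR or only the 4 libraries compared, 4 with the block, 5 with DESeq2 and 1 to 2 with a library left out. Over all genes 148 passed, against 27 with no filter, 550 with DESeq2, 689 with the block and 20 to 169 with a library left out. In NPMc_Flt3ITD against Flt3ITD, 0 of the list passed, with 1 higher under DESeq2 and, under the block, 1 higher and 1 lower. Over all genes 149 passed, against 0 with no filter, 92 with edgeR, 1017 with DESeq2, 52 with no trend, 1513 with the block and 24 to 108 with a library left out. The cause of these shifts was not tested, beyond the fewer libraries in some fits.

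Esam in NPMc_Flt3ITD against Mx passed under all 16 alternatives (adjusted p up to 0.0421). Procr there was lost with a pseudocount of 0.25 (adjusted p = 0.0538), no filter (0.134), edgeR (0.0816), no trend (0.0953), only the 4 libraries compared (0.0502) and each library left out (0.0573 to 0.236). Tek there was lost with no filter (adjusted p = 0.126), no trend (0.0573) and an Mx or NPMc_Flt3ITD library left out (0.0765 to 0.156). The direction against Mx held in every alternative for all 8 genes except Angpt1 in NPMc_Flt3ITD, which with a library left out ranged from -0.30 to 0.0011, the last without NPMc_Flt3ITD replicate 2. Between the mutant groups, Fgd5 ranged from -1.72 to 0.0301, above 0 without NPMc_Flt3ITD replicate 1, and Ctnnal1 from -0.58 to 0.67, at -0.22 without Flt3ITD replicate 1 and -0.58 without NPMc_Flt3ITD replicate 1. Scaling to library totals moved the median of all genes to -0.10 in Flt3ITD against Mx and -0.11 in NPMc_Flt3ITD against Mx, where higher genes were 28.9% of calls (46.5% as deposited) and 33.0% (43.9% as deposited). Tek and Tie1 passed in Flt3ITD against Mx under that scaling (adjusted p = 0.0366 and 0.0314), a pseudocount of 4 (0.0423 and 0.0490) and the 5 CPM filter (0.0465 and 0.0473). The labels do not say that a replicate number marks shared mice, litters or days, and 2 numbers per group are too few to show pairing from the values, so the replicate block is an alternative only. Deviations of same-numbered libraries from their group means correlated across genes at 0.316 for NPMc_Flt3ITD and Mx, 0.341 for NPMc_Flt3ITD and Flt3ITD and 0.259 for Flt3ITD and Mx. The block added as lower Tek (adjusted p = 0.00227) and Tie1 (0.00746) in Flt3ITD against Mx, Fgd5 (0.0185) in NPMc_Flt3ITD against Mx and Tek (0.0420) in NPMc_Flt3ITD against Flt3ITD, and as higher Angpt1 (0.00615) in the last of these, and it lost no call of the 8. With 2 libraries per group, a value that did not pass does not show equal levels.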
